A study of Mus musculus with 4 samples.

Results

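The endocannabinoid receptor CB1 and the main enzymes that make and break down its lipid ligands were followed through 6 genes, Cnr1, Dagla, Daglb, Mgll, Faah and Napepld. They were chosen by gene symbol, and each of the 6 was carried by 1 row of the 21789 rows (19938 genes) that had exactly 1 symbol. The data come from 4 Affymetrix Mouse Gene ST arrays, 2 per group, hybridised with RNA labelled as prefrontal cortex of ICR mice. Mice received ketamine, an NMDA receptor blocker, by daily intraperitoneal injection at 30 mg/kg, or normal saline; the methods give 3 months of treatment from 1 month of age. The treatment in the labels is contradictory, since the source field names as ketamine the 2 arrays that have saline in their titles and the other way round. Groups are named here by title, so every difference is titled ketamine minus titled saline, and by the source field each sign would turn. The labels give female mice and the methods male mice. By the study's design each array stands for 1 mouse, and the spread behind every p-value is that of these 4 samples.

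Endocannabinoids are lipids that a postsynaptic neuron makes on demand and that travel backwards across the synapse to CB1, a receptor on presynaptic terminals that lowers transmitter release. The first of them, 2-arachidonoylglycerol (2-AG), is made from diacylglycerol by the lipases of Dagla and Daglb and is broken down mainly by monoacylglycerol lipase, from Mgll. The other, anandamide, is released from membrane phospholipids by the phospholipase of Napepld and broken down by the hydrolase of Faah. In cortex CB1 is known to be most abundant on interneurons that contain cholecystokinin. In the cerebellum it is known from the parallel fibres of granule cells, which contact Purkinje cells rich in the Dagla lipase.

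The groups differed in the markers of the cells that carry this system. All 8 listed markers of cerebellar granule cells were higher on the ketamine-titled arrays, with a summed linear level of 12711 and 12065 there and of 1008 and 709.9 on the saline-titled arrays. All 4 measured Purkinje cell markers were also higher, at sums of 5854 and 5319 against 947 and 716. Of 7 genes listed for cholecystokinin interneurons 4 were lower, 1 was higher and 2 did not pass, at sums of 1934 and 1831 against 3157 and 3208. How particular these genes are to such interneurons was not tested. Cck itself was at a log2 difference of -1.94. Cck is the brightest row of that list, and without it the sums of the other 6 turned, to 1221 and 1227 on the ketamine-titled arrays against 696 and 622. The higher one was Reln, the brightest of those 6 on every array. Granule cells of the cerebellum are also known to express Reln. All 4 measured striatal markers were lower. All 6 measured markers of cortical projection neurons were lower too, at sums of 1247 and 1230.2 against 3565.5 and 3581, and Tbr1 and Neurod6, which define these neurons, read on both ketamine-titled arrays at or below the 95th percentile of 1035 olfactory receptor rows, taken as the level of rows with no known brain expression. All 6 microglial markers were lower, at sums of 537 and 612 against 1041.5 and 1031. Of 6 astrocyte markers 2 were higher and 4 did not pass, and none of 5 measured oligodendrocyte markers passed. The tissue label and these markers therefore go apart on the ketamine-titled arrays. Values of the 6 genes are given beside this difference, whose part in them was not tested.

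The start-site regions of the 3 genes that passed the test are shown first, as the 250 bases before the RefSeq transcription start (GRCm38.p6), 5′ to 3′ in the direction of the gene. Windows were found for 5 of the 6 genes by gene symbol, the exception being Dagla. Capitals mark the GC box GGGCGG, the letters bound by Sp1-type factors, and the letters AAGATGGC, the core bound by YY1, each on either strand and with no letters shared between them. The YY1 core was added after the Napepld window had been read.
Cnr1, chr4:33924014-33924263, plus strand: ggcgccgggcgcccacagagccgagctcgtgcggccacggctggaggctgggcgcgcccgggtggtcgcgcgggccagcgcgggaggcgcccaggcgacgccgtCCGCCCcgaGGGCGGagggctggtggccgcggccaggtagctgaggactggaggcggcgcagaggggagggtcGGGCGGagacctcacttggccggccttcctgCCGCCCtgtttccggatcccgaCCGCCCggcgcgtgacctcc
Faah, chr4:116017925-116018174, minus strand: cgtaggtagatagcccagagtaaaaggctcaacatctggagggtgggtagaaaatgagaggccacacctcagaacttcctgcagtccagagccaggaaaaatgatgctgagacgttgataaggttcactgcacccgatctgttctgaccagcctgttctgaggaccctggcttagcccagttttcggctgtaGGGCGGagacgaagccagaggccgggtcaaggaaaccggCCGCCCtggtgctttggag
Napepld, chr5:21701623-21701872, minus strand: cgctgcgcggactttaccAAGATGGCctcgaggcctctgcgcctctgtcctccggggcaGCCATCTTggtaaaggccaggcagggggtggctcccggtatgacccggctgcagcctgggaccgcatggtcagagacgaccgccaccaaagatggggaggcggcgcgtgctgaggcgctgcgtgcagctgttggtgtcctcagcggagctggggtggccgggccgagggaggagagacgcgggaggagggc

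This Cnr1 window, the first of 3 annotated starts, held 5 GC boxes and 36 CpG pairs, a number of CpG pairs reached by 2.58% of 32851 such windows of all genes. The windows before its other 2 starts held no GC box, and 28 and 5 CpG pairs. The Faah window held 2 GC boxes and 9 CpG pairs. The Napepld window held no GC box and 2 copies of the YY1 core in opposite orientation. A GC box was present in 32.7% of all windows and the YY1 core in 1.57%. The E-box CACGTG, the cAMP response element TGACGTCA and the TATA box TATAAA were searched too, on both strands; none was in these 3 windows, while the window before the second Cnr1 start held 1 E-box, and they were in 6.02%, 1.55% and 12.4% of all windows. Genes that did not pass had such letters too. The first Mgll window held 23 CpG pairs and 1 E-box. The second Mgll window held 40 CpG pairs, a number reached by 1.31% of all windows, and 1 GC box. The Daglb window held 9 CpG pairs and none of the searched motifs. These matches are letters in a window, and which start the arrays' RNA came from was not measured.

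Of the 6 genes, Cnr1 was higher on the ketamine-titled arrays, Faah and Napepld were lower, and Dagla, Daglb and Mgll did not pass an adjusted p of 0.05 (limma, Benjamini-Hochberg over all 21789 rows). That is 3 of 6, where 33.2% of all rows passed (23.4% of all rows as higher and 9.71% as lower), too near a share for the count to say anything of the 6 genes as a group. Rows at or above the median level, which include all 6 genes, passed in 49.0% when tested alone. In that fit 2 of the 6 were called higher and 2 lower. The values of the 2 groups did not overlap for 5 of the 6 genes, as for 69.9% of all rows. All 6 read above the olfactory receptor level on every array. The median difference of all rows was 0.13 on the log2 scale, and the split of called rows moved with the scaling, from 5109 higher and 2115 lower as deposited to 3311 and 3074 after quantile normalization and 3210 and 3213 after median centring. The calls on the 6 genes were the same under both scalings.

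**Figure D1:**
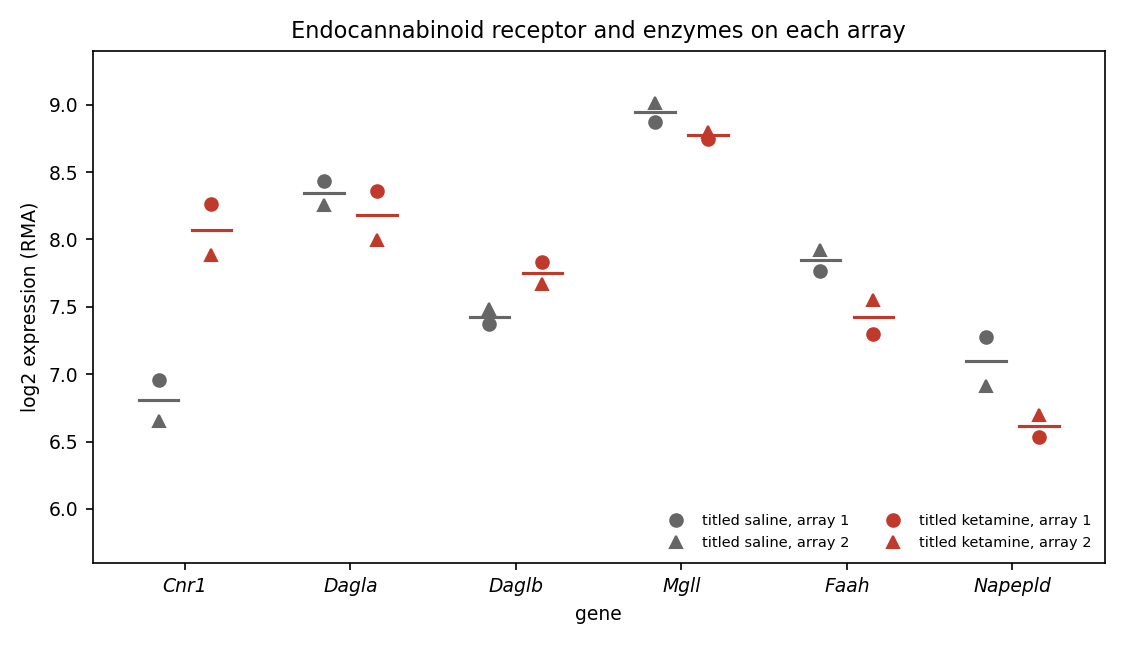
Log2 expression (y axis) by gene (x axis) and array, in grey for titled saline and red for titled ketamine, circles for array 1 and triangles for array 2 of a group, with bars at the group means. Cnr1 lies at 6.96 and 6.65 on the saline-titled arrays and at 8.26 and 7.88 on the ketamine-titled ones, and Dagla is the one gene whose groups overlap.

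Cnr1, which encodes CB1, was the member with the largest difference. Its log2 value was 6.96 and 6.65 on the saline-titled arrays and 8.26 and 7.88 on the ketamine-titled arrays. Both ketamine-titled arrays stood above both titled saline, with a gap of 0.92 between the groups against 0.31 and 0.38 within them. The group means were 6.81 ± 0.217 (SD, n = 2) and 8.07 ± 0.269 (SD, n = 2), a log2 difference of 1.27 (standard error 0.166, adjusted p = 0.00161 from limma) or 2.41-fold. It was the 437th highest of the 21789 differences, and 3.997% of rows differed by at least this much in either direction. The cerebellar granule cell markers were higher and Cck lower on the same arrays. Of the 7 genes listed for cholecystokinin interneurons 4 were lower (Cck, Vip, Htr3a and Npas1), 1 was higher (Reln) and 2 did not pass. Without Cck the summed level of the list was higher there, at 1221 and 1227 against 696 and 622. Reln, also known from cerebellar granule cells, was the brightest of the other 6 on every array. Its log2 value was 9.69 and 9.25 there against 7.83 and 7.87. The sum without Cck therefore depends most on Reln, and no sum without both genes was formed. In such bulk RNA a change in the number of cells of a type and a change in RNA per cell cannot be told apart.
The call on Cnr1 held without either saline-titled array, with log2 differences of 1.42 and 1.11. Without ketamine-titled array 1 or array 2 its difference was 1.08 (adjusted p = 0.151, unadjusted 0.0275 in limma) or 1.46 (adjusted p = 0.120, unadjusted 0.0149), and no row of the table passed in limma in either fit. An unadjusted p under 0.05 was reached there by 5974 and by 6461 rows.

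Neither of the lipases that make 2-AG passed the test. Dagla, the lipase known to supply 2-AG at most adult synapses, read 8.43 and 8.26 on the saline-titled arrays and 8.36 and 7.999 on the ketamine-titled ones. The groups overlapped, and the 2 ketamine-titled arrays were farther from each other (0.36) than the group means were (log2 difference -0.16, 95% interval -0.51 to 0.19, adjusted p = 0.433 from limma). The Dagla difference was -0.30 after median centring and -0.29 after quantile normalization, with adjusted p = 0.164 and 0.170 in limma. Without ketamine-titled array 2 the Dagla difference was 0.018, so that its sign turned with that array.
Daglb, the related lipase that is known to be prominent in microglia and other immune cells, read 7.37 and 7.48 on the saline-titled arrays and 7.83 and 7.67 on the ketamine-titled ones. Both ketamine-titled arrays stood above both titled saline, by a gap of 0.18. The log2 difference was 0.32 (95% interval 0.050 to 0.60), and it missed the threshold at an adjusted p = 0.0704 in limma. It passed with an intensity trend in the variance (adjusted p = 0.0435) and over the rows at or above the median level (adjusted p = 0.0351). Relative to the median of all rows the Daglb difference was 0.19. The microglial markers were lower on the arrays on which Daglb read higher.

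Mgll, whose lipase ends the 2-AG signal, read 8.87 and 9.01 on the saline-titled arrays and 8.75 and 8.80 on the ketamine-titled ones. The groups did not overlap, by a gap of 0.071. Its log2 difference of -0.17 (95% interval -0.43 to 0.091, adjusted p = 0.277 from limma) did not pass. After median centring the difference was -0.31 (95% interval -0.57 to -0.044, unadjusted p = 0.0267 and adjusted p = 0.0772 in limma) and after quantile normalization -0.28 (95% interval -0.55 to -0.013, adjusted p = 0.106), which did not pass either.

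Both genes of anandamide turnover were lower on the ketamine-titled arrays. Faah, which encodes the hydrolase that breaks anandamide down, read 7.76 and 7.92 on the saline-titled arrays and 7.30 and 7.55 on the ketamine-titled ones. The groups were 0.21 apart, with 0.16 between the saline-titled arrays and 0.25 between the ketamine-titled ones. For Faah this came to -0.42 on the log2 scale (adjusted p = 0.0455 and standard error 0.130 in limma), lower by 1.34-fold. Napepld, whose phospholipase releases anandamide from its precursor, read 7.28 and 6.91 on the saline-titled arrays and 6.53 and 6.70 on the ketamine-titled ones. The groups were 0.22 apart, less than the 0.36 between the 2 saline-titled arrays. For Napepld it came to -0.48 on the log2 scale (adjusted p = 0.0428 and standard error 0.147 in limma), lower by 1.40-fold.
Relative to the median of all rows the differences were -0.55 for Faah and -0.61 for Napepld, and 8.88% and 7.60% of all rows had a lower difference. With 1 array left out the log2 difference of Faah ranged from -0.54 to -0.29. Its call was lost without either saline-titled array. The Napepld difference was -0.30 without saline-titled array 1, where the call was lost, and -0.66 without saline-titled array 2, where it held. Fits without a ketamine-titled array called no gene at all, so the calls lost there say nothing of Faah and Napepld.

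**Figure D2:**
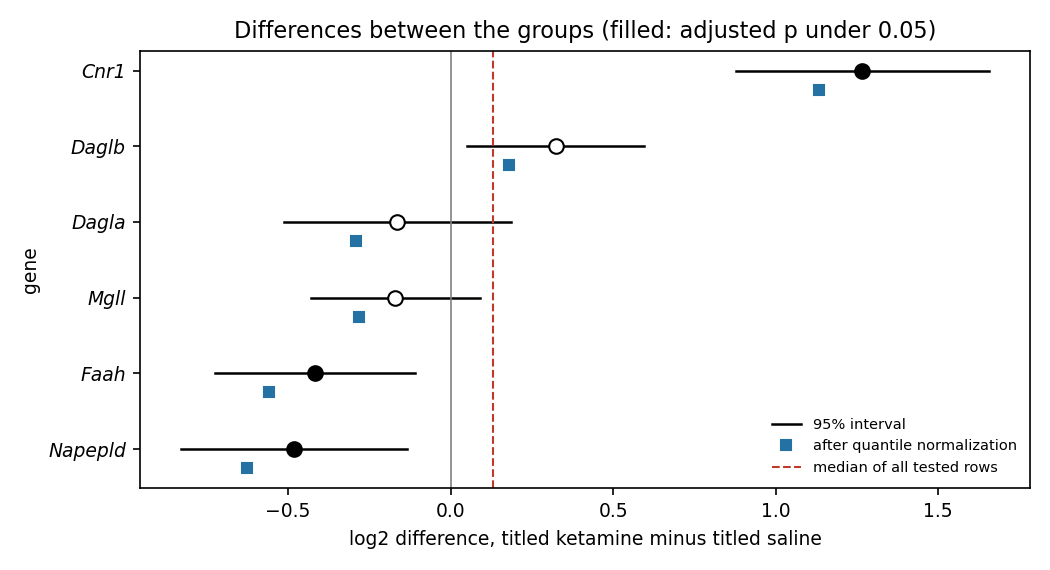
Log2 differences between the groups (x axis) for the 6 genes (y axis), as circles with the 95% interval from limma, filled where the adjusted p was under 0.05, and as blue squares after quantile normalization of the arrays. The dashed line is the median of all tested rows, at 0.13; Cnr1 lies at 1.27, Napepld at -0.48 and Faah at -0.42.

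Pairs of enzymes were also compared within each array, where a constant shift between arrays drops out. The log2 value of one row minus that of another has no meaning as a level, since probes differ. A change of it between the groups gives by how much the measured differences of the 2 genes were unequal. Of 4 pairs, Dagla minus Daglb was 1.06 and 0.77 on the saline-titled arrays and 0.53 and 0.33 on the ketamine-titled ones. All 4 values of this pair were ordered by group, and the group means differed by -0.49. Mgll minus Faah was 1.11 and 1.09 against 1.45 and 1.25, a difference of 0.25 that also kept the groups apart. Both were at p = 0.333 in a two-sided exact permutation test, the smallest p that 2 arrays against 2 can give, so that none of the 4 pairs could reach a threshold. After quantile normalization, an alternative chosen after the data were seen, the differences of these pairs were -0.47 and 0.28.
The synthesis minus breakdown pairs that were formed overlapped between the groups. Daglb, which also makes 2-AG, was not paired with Mgll. Their own log2 differences were 0.32 and -0.17, in opposite directions. Dagla minus Mgll, for 2-AG, was -0.44 and -0.76 on the saline-titled arrays and -0.38 and -0.80 on the ketamine-titled ones, a difference between group means of 0.0061 (p = 1.0, exact permutation test). Napepld minus Faah, for anandamide, was -0.49 and -1.01 against -0.77 and -0.86, a difference of -0.064 (p = 1.0, exact permutation test). The spread within a group, up to an SD of 0.371, was larger than either difference, and with 2 arrays a group an unequal change of this size would not be seen.

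**Figure D3:**
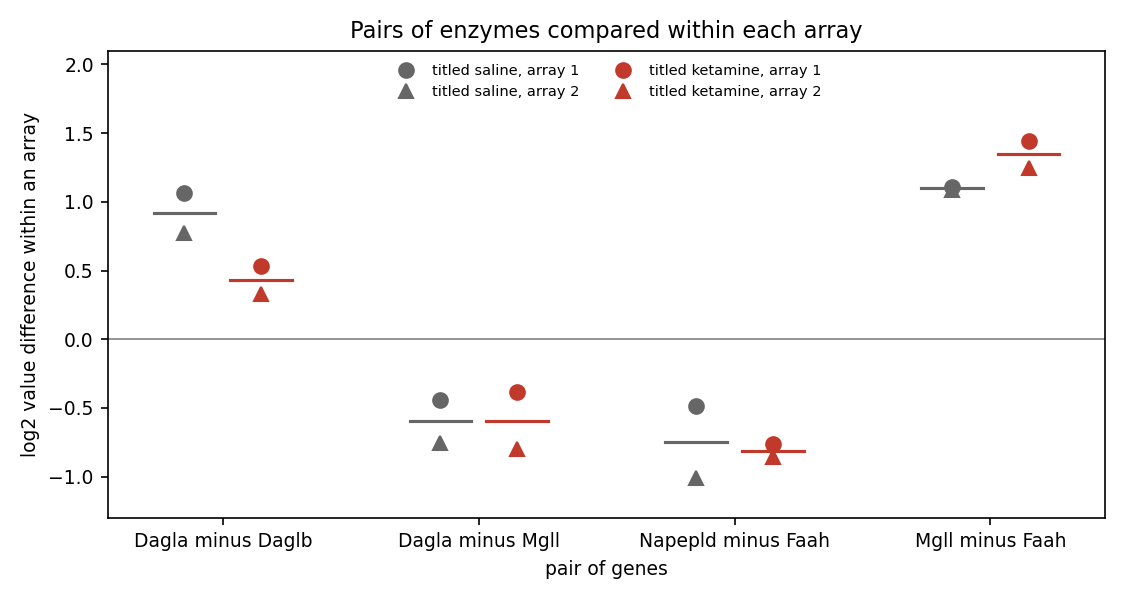
The log2 value of one enzyme gene minus that of another on the same array (y axis) for 4 pairs (x axis), with colours and symbols for the arrays as in the plot of the 6 genes and bars at the group means. The groups are apart for Dagla minus Daglb (0.77 and above against 0.53 and below) and for Mgll minus Faah. They overlap for Dagla minus Mgll and for Napepld minus Faah.

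The wider pathway was read through 42 further genes in 6 lists, of which 41 were measured. On the ketamine-titled arrays 6 were higher and 8 lower, and 27 did not pass, 34.1% called beside 33.2% of all rows, and the median log2 difference was -0.033 beside 0.13 for all rows. After quantile normalization 5 were higher and 9 lower.

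The largest differences lay upstream of 2-AG, among the receptors and phospholipases C that supply diacylglycerol to the Dagla and Daglb lipases. Of 11 measured genes 5 were lower, 2 were higher and 4 did not pass, 63.6% called beside 33.2% of all rows. Of the rows at or above the median level, tested alone, 49.0% passed, so that the excess depends on the rows set beside it. Grm5, a metabotropic glutamate receptor that drives 2-AG release in forebrain neurons, read 10.20 and 10.14 on the saline-titled arrays and 7.30 and 7.76 on the ketamine-titled ones, a log2 difference of -2.64 (adjusted p = 6.46e-05 from limma). Chrm3, a muscarinic receptor that acts on the same phospholipases, read 8.27 and 8.26 against 5.07 and 5.56, a difference of -2.95. The other 3 lower genes, named after their values were seen, were the muscarinic receptor Chrm1 at -1.90, the phospholipase Plcb1 at -1.41 and the G protein subunit Gna11 at -0.38. Plcb4, the phospholipase C known from many Purkinje cells, read 9.16 and 8.77 on the saline-titled arrays and 10.36 and 10.20 on the ketamine-titled ones, higher by 1.32 (adjusted p = 0.000954 from limma), and Plcb3 was higher by 0.66. The cortical markers were lower and the Purkinje cell markers higher on the same arrays.

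Among 8 other receptors and partners none passed in limma, where 2 (Gpr18 and Ppara, named after their values were seen) had an unadjusted p under 0.05, at 0.0209 and 0.0176. Cnrip1, whose protein binds the tail of CB1, read 8.01 and 7.97 on the saline-titled arrays and 7.96 and 7.74 on the ketamine-titled ones, a log2 difference of -0.14 (95% interval -0.42 to 0.14, adjusted p = 0.403 from limma), beside the 1.27 of Cnr1. Cnr2, the CB2 receptor of immune cells, read between 3.59 and 3.92 on the 4 arrays, below those 95th percentiles over olfactory receptors, which ranged from 4.20 to 4.56, so that a change of it could not be resolved. Gpr18 read above that level on 1 of the 4 arrays, so that its difference, 0.44 as measured, was not resolved either.

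Of 9 genes of other proposed routes to anandamide 2 were higher, 2 lower and 5 did not pass, 44.4% called beside 33.2% of all rows. Plaat1, an acyltransferase of phospholipids, was at a log2 difference of -0.65 and the phosphatase gene Inpp5d, which is known from immune cells, at -0.63. The 2 that were higher, Ptpn22 at 1.05 and Gdpd3 at 0.62, read below the 95th percentile of the olfactory receptor rows on all 4 arrays, and their sizes of change are open to that floor.
Of 6 genes of other breakdown routes 1 was higher, 1 lower and 4 did not pass, 33.3% called beside 33.2% of all rows. Ptgs2, the cyclooxygenase that oxidises both ligands and an activity-regulated gene of forebrain neurons, read 7.14 on both saline-titled arrays and 5.07 and 4.80 on the ketamine-titled ones, a log2 difference of -2.21 (adjusted p = 5.16e-05 from limma). Naaa, an amidase of anandamide-like lipids, was higher by 0.52 (adjusted p = 0.0158 in limma, 0.0517 after quantile normalization and 0.0452 after median centring). The 2-AG hydrolases Abhd6 and Abhd12 had log2 differences of 0.038 (95% interval -0.25 to 0.33) and -0.18 (95% interval -0.45 to 0.083), neither past the threshold.

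None of the 3 intracellular lipid carriers passed in limma, where Fabp5 alone had an unadjusted p under 0.05, at 0.0368, with a log2 difference of -0.47 (adjusted p = 0.0900). Fabp5 passed under both other scalings, at -0.62 after quantile normalization (adjusted p = 0.0458 in limma) and -0.61 after median centring (adjusted p = 0.0291). Fabp5 had 2 rows, and these values are those of the row with the higher mean only. Fabp7, a carrier of radial and Bergmann glia, read 7.55 and 7.75 on the saline-titled arrays and 7.83 and 8.74 on the ketamine-titled ones, and its 2 ketamine-titled arrays differed by more than the group means, whose difference was 0.63. Of the 4 G protein subunits through which CB1 signals, Gnai3 was higher by 0.48 (adjusted p = 0.0150 in limma, 0.0320 after quantile normalization and 0.0533 after median centring). The other 3 did not pass, and Gnao1, the most abundant in brain, had a log2 difference of -0.13 (95% interval -0.39 to 0.13).

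**Figure D4:**
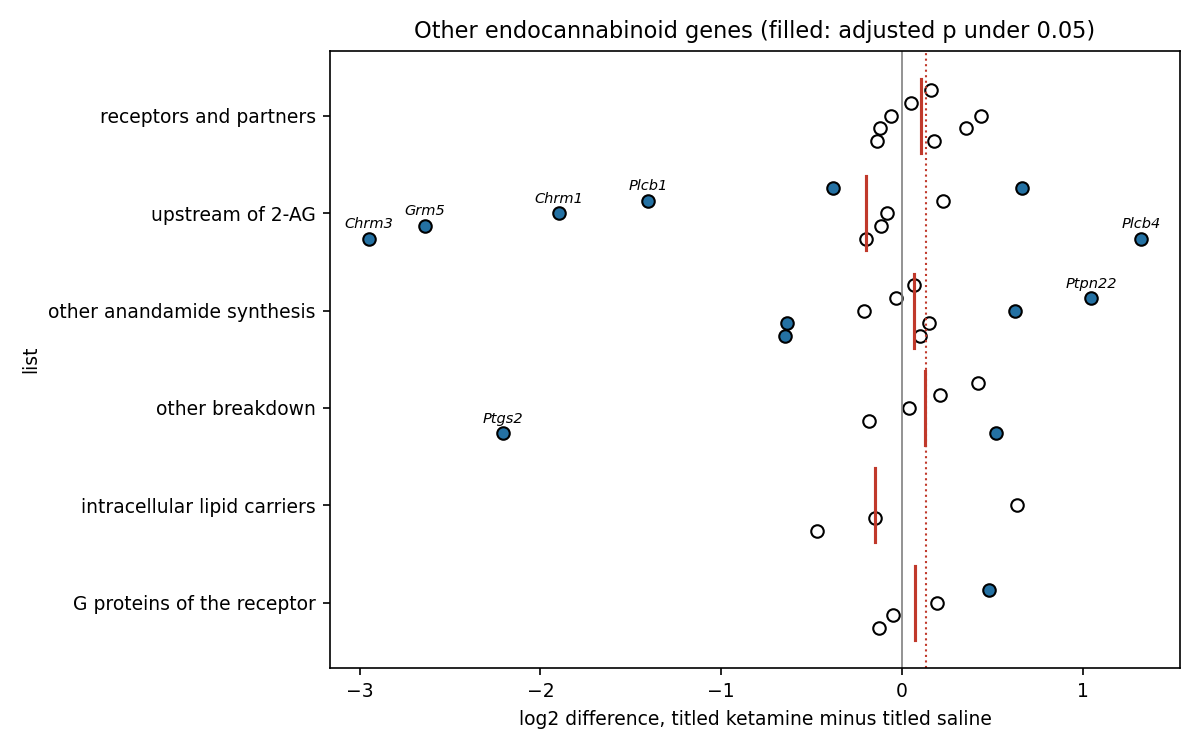
Log2 differences between the groups (x axis) for 41 other endocannabinoid genes in 6 lists (y axis), filled where the adjusted p from limma was under 0.05, with the red bar at the median of each list, the dotted line at the median of all tested rows, and names for genes past 1 in size. The list upstream of 2-AG spans from Chrm3 at -2.95 to Plcb4 at 1.32, while the receptors and partners and the lipid carriers hold no filled point.

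Rows with the most similar pattern to each gene were found by the distance between the 4 log2 values after each row was centred on its own mean. Over 4 arrays such a likeness is a description only. Nearest to Cnr1 were Megf10, an engulfment receptor of astrocytes, at a distance of 0.085 and with values of 6.68 and 6.48 on the saline-titled arrays and 8.01 and 7.65 on the ketamine-titled ones, and the lipid transporter gene Abca7 at 0.096. Nearest to Faah were P3h2 at 0.019 and Shisa4 at 0.031, and nearest to Dagla were Sidt1 at 0.034 and Pgpep1l at 0.046. For Mgll they were Hdac6 and Srsy, both at 0.015, and for Daglb Olfr366 at 0.011 and Fam193b at 0.012. For Napepld they were Oosp2 at 0.020 and Cd36 at 0.024. Of these, Olfr366, Srsy, Oosp2, Cd36 and Pgpep1l are dim rows, such as Olfr366 at 3.005 to 3.46 across the arrays, so that patterns like those of Dagla, Daglb, Mgll and Napepld also occurred among rows near the olfactory receptor level.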

How the data were processed

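RNA of 4 mice, 2 in each titled group, was measured on 1-colour arrays. What the authors deposited are RMA values on the log2 scale from the Affymetrix Expression Console (background correction, normalization between arrays and 1 value per transcript cluster); the software version and the build behind the annotation are not given in sources used here. RMA compresses low values and removes part of any shift shared by most genes. Of 35556 rows, 21789 carried exactly 1 symbol in the platform annotation, 1621 several and 12146 none; only the first were tested, with no filter on dim rows. Array medians over these rows ranged from 5.90 to 6.04, and the number of arrays limits the precision.

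The methods name no test for the arrays. limma (version 3.58.1) in R (version 4.3.3) was run with lmFit and eBayes, with Benjamini-Hochberg adjustment over all 21789 rows and a threshold of 0.05, after it was tested on simulated data. Pairs of genes were compared with exact permutation tests in scipy (version 1.17.1). A gene with several rows was represented by the row with the highest mean. Summed marker levels are sums of values taken out of the log2 scale. The members and lists were chosen with earlier results of these data known. Named genes are the 6 members, the highest and lowest 1 or 2 of each pathway list with Grm5, Abhd6, Abhd12 and Cnrip1, the 2 rows nearest to each member with predicted genes passed over, and markers beside a result. Older symbols were matched through RefSeq synonyms. Alternatives were the variance model, the scaling, a filter on dim rows, a block on the replicate number, and leaving out 1 array at a time. The same-numbered arrays' deviations correlated at 0.034 over rows.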

Additional observations from a re-analysis of the deposited data

How the results depend on the processing

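Of 60 values of the 6 genes under alternatives, 48 kept the direction and side of the threshold of the deposited values. Under the variance models, the block and the filter on dim rows the difference itself cannot change, and only the p-value can. The 1 reversal was Dagla without ketamine-titled array 2, at 0.018. Daglb passed at its unchanged difference of 0.32 with an intensity trend and with dim rows (below the median level) left out, so that 2 genes were called higher in both of these fits. With 1 array left out the log2 differences ranged from 1.08 to 1.46 for Cnr1, from -0.34 to 0.018 for Dagla, from 0.24 to 0.40 for Daglb, from -0.24 to -0.098 for Mgll, from -0.54 to -0.29 for Faah and from -0.66 to -0.30 for Napepld. In the same fits 0 to 1 of the 6 genes were called higher and 0 to 1 lower, as were 0 to 4574 of all rows, and 0 to 5 of the other endocannabinoid genes were called higher and 0 to 5 lower. Both fits without an ketamine-titled array called 0 rows in limma, where 5974 and 6461 had an unadjusted p under 0.05; a lone array is assumed there to vary like the other group, and a lost call does not show that a difference is absent. With 1 array left out the differences within an array ranged from -0.63 to -0.34 for Dagla minus Daglb, from -0.20 to 0.22 for Dagla minus Mgll, from -0.33 to 0.20 for Napepld minus Faah and from 0.15 to 0.35 for Mgll minus Faah.

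The arrays share only a replicate number, and same-numbered arrays did not deviate together (r = 0.034 over rows). With the replicate number as a block, the calls on the 6 genes stayed as they were (Cnr1 at a log2 difference of 1.27), 8250 rows passed in all, and 10 other endocannabinoid genes were called higher where 6 were without it. Each of the 6 genes had 1 row, so that no choice of row arose. The causes of these changes were not tested.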
